A study of Mus musculus with 15 samples.

Results

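The 10 genes followed here, Lcn2, Saa1, Saa2, Saa3, Saa4, Orm1, Orm2, Orm3, Hp and Apcs, encode secreted proteins of the acute-phase response. They were chosen by name, as the spots other than controls that carry one of these gene names in the scanner files. The choice was made with earlier results of these data known. Counts of these genes set beside the share of all genes are therefore a description and not a test. All 10 names were found among the 22032 gene symbols of the array, and each was measured by 1 probe printed once, so that every value below rests on a single spot per array.

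Liver RNA of male CD1 mice was measured on single-colour 8x60K oligonucleotide arrays. The control mice (group C) were given saline followed by the empty plasmid, the mice of group T diethylnitrosamine (DEN, a liver carcinogen) followed by the same empty plasmid, and the mice of group G DEN followed by pcDNA3/CAG-HAGas1, which carries the growth arrest gene Gas1 under the ubiquitous CAG promoter. The paper reports many tumors in every DEN-treated mouse, so livers of both T and G bore tumors. In the study's protocol DEN was injected 15 days after birth at 25 µg per g body weight, plasmids (50 µg per delivery) were given weekly to all groups through the tail vein by hydrodynamic gene delivery from week 28 to week 34, and livers were taken at week 35, whereas the sample labels give a younger age. This delivery reaches only part of the liver cells, and the labels do not say whether tumor or surrounding tissue was taken.

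The 15 arrays hold RNA of 13 mice (3 in C, 4 in T, 6 in G), because 2 arrays of group C and 2 of group T carry the same RNA code and were averaged as mice C3 and T4. Nothing in the labels says how the 13 livers were picked from the 9 mice per group of the study. The arrays lay on 2 slides that each held all 3 groups, and 15707 to 29765 spots per array were well above background. The 9 hepatocyte markers measured, of 10 listed, were well above background on every array. Gas1 itself, measured by 3 probes, was at 6.61 ± 0.11 (SD, n = 6) in group G and 6.54 ± 0.09 (n = 4) in group T on the normalised log2 scale (adjusted p = 0.768), so these arrays give no check of the label of group G. Of the 3 probes, 1 was well above background on 15 of 15 arrays, 1 on 11 and 1 on 5, and whether they read the part of the transcript that the plasmid carries was not checked. No spot was saturated. All 10 probes were well above background on 15 of 15 arrays except that of Orm3, which missed this level on 1 array, that of liver C2.

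The acute-phase response is the change in protein synthesis by which hepatocytes answer injury, infection and inflammation. Cytokines of the interleukin-6 and interleukin-1 families act on the hepatocyte through STAT3, NF-kB and C/EBP factors, and the blood level of serum amyloid A, orosomucoid, haptoglobin and lipocalin 2 then rises while that of albumin and transthyretin falls. In the mouse, serum amyloid A1 and A2 and serum amyloid P component take the place that C-reactive protein has in man, and lipocalin 2 is also made by neutrophils.

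The genes lie in 2 clusters and 3 single places. On mm9, the build of the array files, the probes of the serum amyloid A cluster lie on chromosome 7 in the order Saa3 (chr7:53970389-53970448), Saa4 (chr7:53983662-53983721), Saa1 (chr7:53996070-53996129) and Saa2 (chr7:54009622-54009681). Those of the orosomucoid cluster lie on chromosome 4 in the order Orm1 (chr4:63006483-63007090), Orm3 (chr4:63018910-63020393) and Orm2 (chr4:63024979-63025038). The 60-base probes of Orm1 and Orm3 span 608 and 1484 bases of genome and thus cross exon junctions. Lcn2 was read at chr2:32240199-32240258, Hp at chr8:112099045-112099104 and Apcs at chr1:174824959-174825018. The older literature exchanges the names Saa1 and Saa2. The names here are those of the array, and the transcripts it assigns to them carry the same symbols in RefSeq.

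The orosomucoid probes are shown because the 3 genes are close paralogs and their readings could be mixed. The 3 probes share runs of at most 7 bases with each other, but they lie at different places of their transcripts, so that binding of 1 paralog's RNA to another's probe was not tested. The same limit holds for Saa1 and Saa2.
Orm1 probe: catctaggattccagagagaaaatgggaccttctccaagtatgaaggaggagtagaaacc
Orm2 probe: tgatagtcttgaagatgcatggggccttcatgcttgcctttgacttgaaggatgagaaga
Orm3 probe: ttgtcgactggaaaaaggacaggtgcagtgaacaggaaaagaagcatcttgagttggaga

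The 250 bases before the transcription start were available from RefSeq (GRCm38.p6) for 8 of the 10 genes, which leaves Orm1 and Hp. The letters TTGCNNAA, a C/EBP-type motif, were found on one or the other strand in 7 of these 8, against 9.56% of 32851 promoters of the same length. The 7 include paralogs of the Saa and Orm families with similar stretches, so they are not independent promoters. The STAT-type letters TTCNNNGAA were found in 1 of 8, Apcs (7.02% of all promoters), and the NF-kB core GGANTTTCC in 0 of 8 (1.07%). Apcs was the gene without the C/EBP-type letters. The pair Saa1 and Saa2 and the pair Orm2 and Orm3 are shown with Lcn2 because these 5 genes were more than 2-fold above the mean of group C in both of the livers T2 and T4 described below. Capitals mark the C/EBP-type letters, which begin 216 bases before the start in Lcn2, 182 in Saa1, 183 in Saa2, 120 in Orm2 and 121 in Orm3. Such a match describes the sequence and does not show that a factor binds there.
Lcn2 (GRCm38.p6, chr2:32387740-32387989, minus strand): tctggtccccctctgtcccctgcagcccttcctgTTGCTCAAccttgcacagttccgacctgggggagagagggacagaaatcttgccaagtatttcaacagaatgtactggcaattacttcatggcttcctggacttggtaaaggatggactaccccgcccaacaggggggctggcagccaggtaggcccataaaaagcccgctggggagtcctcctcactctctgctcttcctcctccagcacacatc
Saa1 (GRCm38.p6, chr7:46742981-46743230, minus strand): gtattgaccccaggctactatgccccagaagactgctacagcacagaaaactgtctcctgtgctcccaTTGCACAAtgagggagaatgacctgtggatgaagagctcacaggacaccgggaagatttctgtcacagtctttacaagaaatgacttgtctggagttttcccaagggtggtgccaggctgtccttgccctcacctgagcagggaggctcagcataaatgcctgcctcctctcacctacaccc
Saa2 (GRCm38.p6, chr7:46751583-46751832, plus strand): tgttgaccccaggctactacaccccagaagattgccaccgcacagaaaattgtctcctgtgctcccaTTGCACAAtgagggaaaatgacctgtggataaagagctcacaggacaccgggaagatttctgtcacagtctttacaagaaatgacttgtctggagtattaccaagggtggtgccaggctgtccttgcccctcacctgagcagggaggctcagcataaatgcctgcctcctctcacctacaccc
Orm2 (GRCm38.p6, chr4:63362199-63362448, plus strand): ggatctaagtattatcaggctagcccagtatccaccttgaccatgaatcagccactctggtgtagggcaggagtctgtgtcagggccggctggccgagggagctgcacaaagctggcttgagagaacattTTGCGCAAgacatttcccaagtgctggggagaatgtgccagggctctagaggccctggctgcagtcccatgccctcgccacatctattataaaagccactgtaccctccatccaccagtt
Orm3 (GRCm38.p6, chr4:63355908-63356157, plus strand): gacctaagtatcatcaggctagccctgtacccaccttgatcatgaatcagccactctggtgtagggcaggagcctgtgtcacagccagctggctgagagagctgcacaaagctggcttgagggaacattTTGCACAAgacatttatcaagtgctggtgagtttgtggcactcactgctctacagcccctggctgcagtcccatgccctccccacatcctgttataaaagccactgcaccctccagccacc
Aligned end to end, the Saa1 and Saa2 stretches were identical at 238 of 249 aligned bases (95.6%) and those of Orm2 and Orm3 at 219 of 245 (89.4%), and the matched letters differ between Orm2 (TTGCGCAA) and Orm3 (TTGCACAA).

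The levels that follow are log2 intensities after background correction and quantile normalisation, in which 1 unit is a 2-fold difference. They compare livers for 1 probe and not 1 probe with another.

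Lcn2, which encodes the siderophore-binding lipocalin 2, was at 9.58, 8.46 and 7.70 in the livers C1 to C3 of group C. In group T it was at 8.76 in T1, 15.40 in T2, 9.43 in T3 and 11.21 in T4. The livers T2 and T4 lay above every liver of the other groups, whereas T1 and T3 lay within the range of group C. In group G the values ran from 7.51 to 9.21 with a median of 7.97. The means stood in the order T (11.20 ± 2.99, SD, n = 4), C (8.58 ± 0.95, n = 3) and G (8.16 ± 0.62, n = 6), and the 3 groups overlapped.

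Saa1 and Saa2, which encode the major acute-phase apolipoproteins of high-density lipoprotein, followed the same order of livers within group T. Saa1 was at 13.23, 11.91 and 11.68 in C1 to C3, and at 12.39, 18.39, 12.80 and 14.35 in T1 to T4. In group G it ran from 10.85 to 11.43 with a median of 11.23, so that all 6 livers lay below all 3 of group C and all 4 of group T. Saa2 was at 13.07, 11.42 and 11.55 in group C, and at 12.30, 17.16, 12.60 and 14.68 in group T. Its 6 values in group G ran from 10.53 to 11.33 (median 11.07) and again lay below every liver of C and T. Liver C1 stood 0.96 and 1.06 above its own group's mean for Saa1 and Saa2, and 1.00 above it for Lcn2.

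Saa3, a serum amyloid A made by macrophages and fat cells as well as by the liver, was at 8.35, 7.30 and 8.04 in group C and at 7.67, 11.74, 8.12 and 8.23 in group T. Only T2 left the range of the control livers. Saa4, the constitutive member of the family, was at 10.87, 11.22 and 11.14 in group C and at 11.06, 13.17, 11.49 and 11.15 in group T. Here T2 and, by a smaller step, T3 lay above group C. In group G Saa3 ran from 7.35 to 7.89 and Saa4 from 10.82 to 11.35.

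The orosomucoids are plasma carriers of basic and neutral ligands, also called alpha-1-acid glycoproteins. Orm1 was at 11.78, 11.28 and 11.61 in group C and at 11.59, 14.38, 11.52 and 11.98 in group T. Orm2 was at 12.23, 11.52 and 11.92 in group C and at 12.34, 15.68, 12.23 and 12.94 in group T. Orm3 was at 6.92, 6.67 and 6.85 in group C and at 7.39, 10.94, 7.44 and 9.16 in group T. For Orm3 the 4 livers of group T all lay above the 3 of group C. In group G Orm1 ran from 11.15 to 11.43 (median 11.29), Orm2 from 11.51 to 12.08 (median 11.76) and Orm3 from 6.49 to 7.77 (median 6.69), the last with liver G5 apart from the other 5.

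Hp encodes haptoglobin, which binds free hemoglobin. It was at 16.53, 16.64 and 16.20 in group C and at 16.80, 18.32, 17.02 and 16.95 in group T, so that all 4 livers of T lay above those of C. In group G it ran from 15.94 to 16.79 (median 16.30), and the top of this range came within 0.01 of the lowest liver of group T. Apcs encodes serum amyloid P component, a pentraxin. It was at 11.07, 10.66 and 10.85 in group C and at 9.98, 13.08, 10.87 and 10.35 in group T, so that T1 and T4 lay below the control livers and T2 above them. In group G Apcs ran from 9.98 to 10.64 (median 10.44), below all 3 livers of group C.

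**Figure D1:**
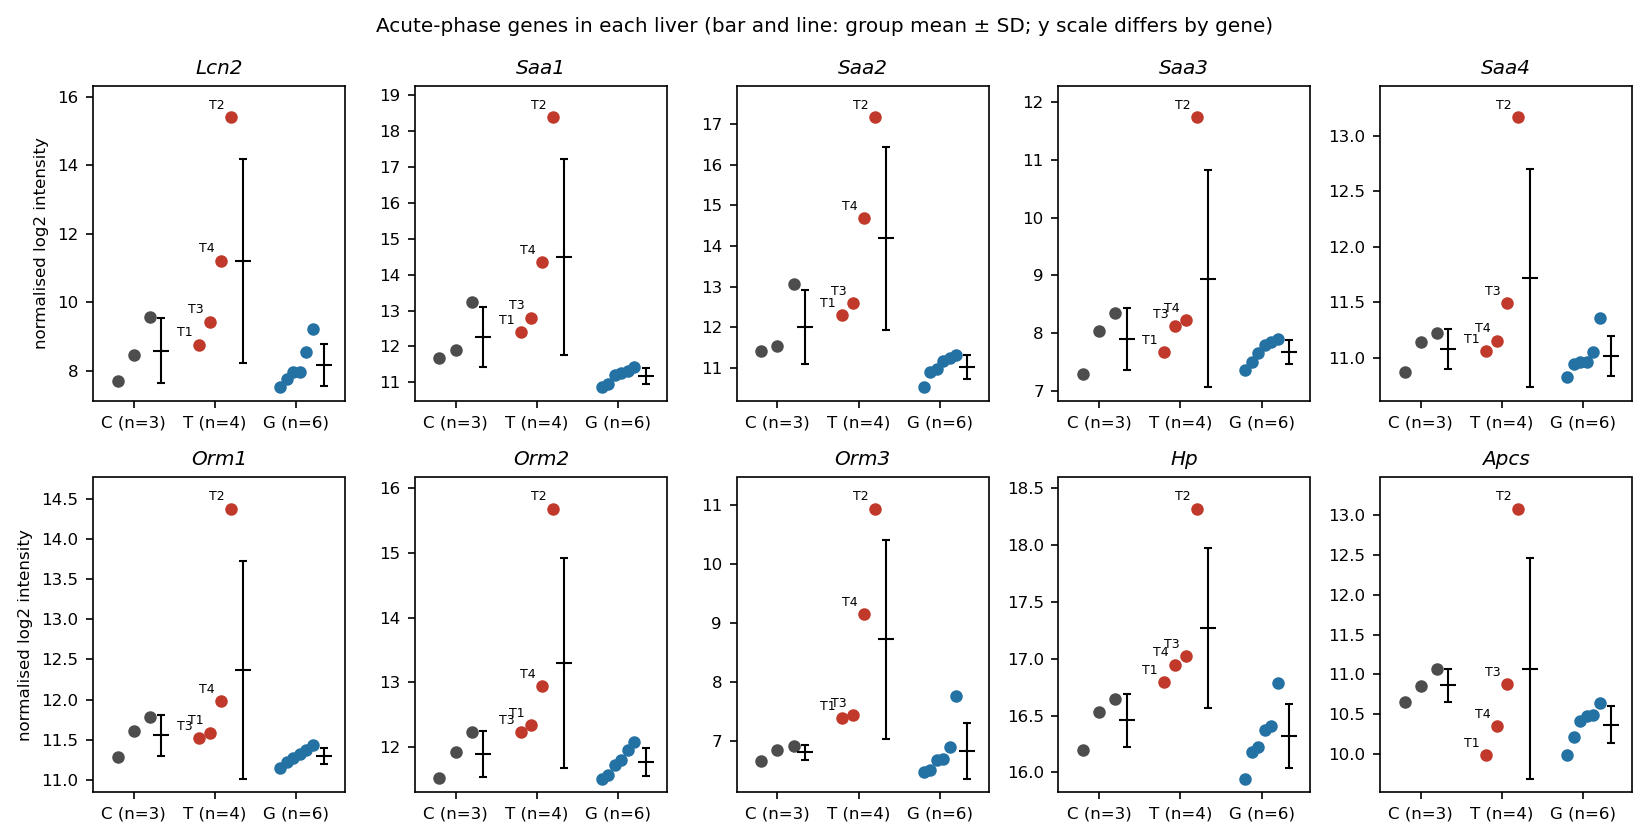
Normalised log2 intensity (y axis, a different range for each gene) of the 10 acute-phase genes in the livers of groups C (3 mice), T (4 mice) and G (6 mice). Each point is 1 mouse, the bar and line give the group mean ± SD, and the livers of group T are named. Liver T2 is the highest of all 13 livers for each of the 10 genes.

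Set against the mean of group C, liver T2 was above it by more than 2-fold for all 10 genes, against 0.863% of the genes with a value in that liver. The distance was 113-fold for Lcn2, 69.5-fold for Saa1, 35.4-fold for Saa2, 14.4-fold for Saa3 and 13.8-fold for Orm2. It was smaller for Orm1 (7.08-fold), Apcs (4.67-fold), Saa4 (4.25-fold) and Hp (3.63-fold). That of Orm3, 17.5-fold, is rough, since the mean of C includes liver C2, where its probe was not well above background, and the log2 difference of T against C for this gene was 1.92 here and 2.78 with the scaled processed signal. The raw signals of Saa3 (67.7) and Lcn2 (135.5) in C2 were also low, so their distances may be rough too. In liver T4, 5 of the 10 genes were more than 2-fold above the mean of group C (0.532% of genes with a value), namely Saa2 (6.36-fold), Lcn2 (6.19-fold), Orm3 (5.07-fold), Saa1 (4.22-fold) and Orm2 (2.07-fold). Livers T1 and T3 had 0 such genes, with 0.434% and 0.444% of their genes past this distance. Among the 6 livers of group G none of the 10 genes was 2-fold above the mean of C in any liver, and the median over the 10 genes ran from -0.36 (G3) to -0.14 (G5) on the log2 scale. Liver C1 itself had 2 of the 10 genes, Saa2 and Lcn2, just over 2-fold above its group's mean. A fall in the number of cells of a type and a fall of RNA per cell cannot be told apart in such whole-liver RNA.

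**Figure D2:**
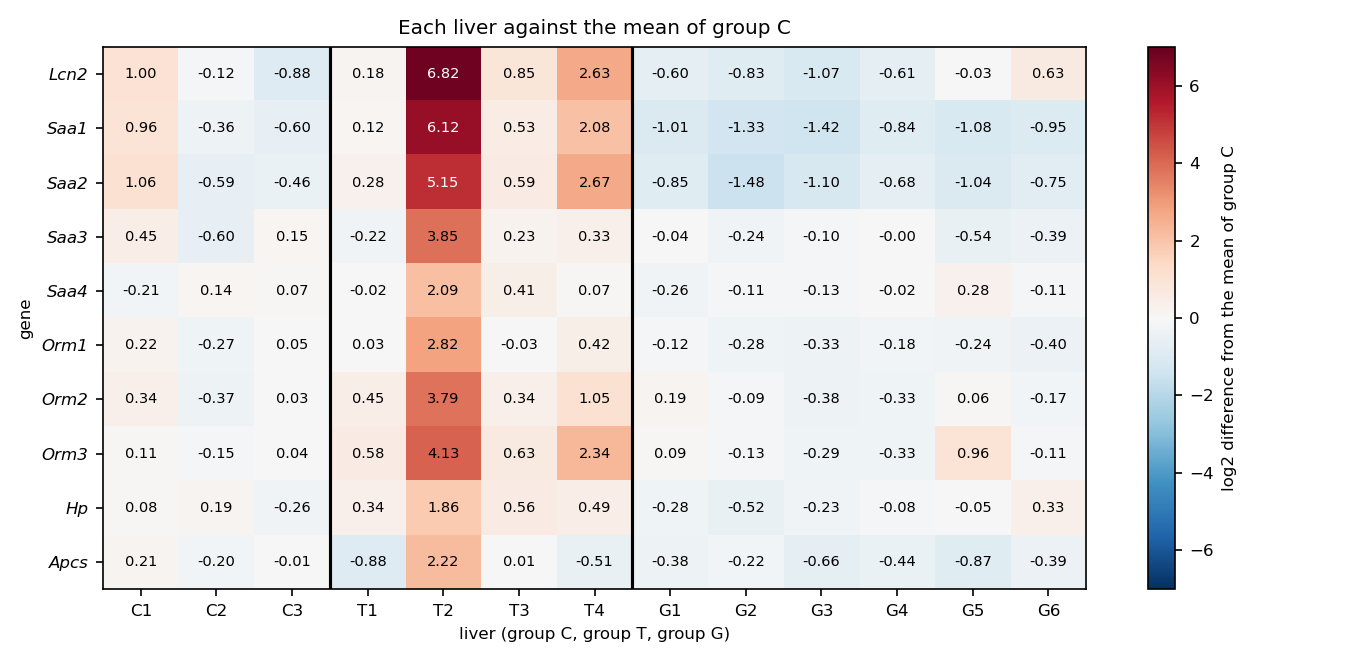
Log2 difference of each of the 13 livers (columns, grouped as C, T and G by the vertical lines) from the mean of group C for the 10 genes (rows), with the value printed in each cell. T2 is above the mean of C for all 10 genes, from 1.86 (Hp) to 6.82 (Lcn2), and T4 for 9 of 10.

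The 2 arrays of mouse T4 lay on different slides and differed by at most 0.19 for any of the 10 genes, and those of mouse C3 by at most 0.13. Liver T2 was measured by 1 array.

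The first comparison, T against C, asks what the DEN treatment changed in mice that received the empty plasmid. The mean of group T was above that of group C for all 10 genes, with a median log2 difference of 1.23 over the 10 against 0.01 over all genes tested. The largest difference was that of Lcn2, 2.62 ± 1.18 (SE), a 6.15-fold ratio of geometric means. Saa1 (2.21 ± 1.05), Saa2 (2.17 ± 0.89), Orm3 (1.92 ± 0.67) and Orm2 (1.41 ± 0.62) followed, then Saa3 (1.04 ± 0.73), Hp (0.81 ± 0.31), Orm1 (0.81 ± 0.51), Saa4 (0.64 ± 0.38) and Apcs (0.21 ± 0.53).

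None of these differences passed the test. With limma and Benjamini-Hochberg adjustment over 22032 genes, 0 of 10 were called, where 2.38% of all genes were, and the adjusted p ran from 0.138 (Orm3) to 0.875 (Apcs). At an unadjusted p under 0.05 there were 5 of 10, Lcn2, Saa2, Orm2, Orm3 and Hp, where 10.8% of all genes were higher in T at that level. The groups did not overlap for 2 of the 10, Orm3 and Hp, against 10.5% of all genes with T above C, so nothing particular to these genes is read from that count. The methods' t-test gave 0 of 10 at an unadjusted p under 0.05, both with equal variances, where 17.5% of all genes were, and with unequal variances, where 13.5% were.

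The differences were smaller without liver T2. Without it the median over the 10 genes was 0.54 in place of 1.23, Lcn2 was at 1.22 ± 0.63, Saa1 at 0.91 ± 0.47, Saa3 at 0.11 ± 0.24 and Orm1 at 0.14 ± 0.14, and Apcs turned to -0.46 ± 0.21. With any single mouse left out, 0 of 10 genes were called in T against C. Within slide 1, which held T2 and 1 array of T4, all 10 genes were higher in T with a median of 2.43, and within slide 2 there were 7 of 10 with a median of 0.49. With the slide as a term the median was 1.23 and 0 of 10 were called. When arrays were scaled on their medians alone, 5 of 10 were called, Saa2, Saa4, Orm2, Orm3 and Hp, but under that scaling 2832 genes were called, 99.5% of them higher in T. In the authors' own log2 table Hp was at 1.49 (limma, adjusted p = 0.0301), against 0.81 here, and was the 1 gene of the 10 called.

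The second comparison, G against T, asks what the Gas1 plasmid changed in DEN-treated mice. The mean of group G was below that of group T for all 10 genes, with a median log2 difference of -1.40 against -0.01 over all genes. Saa1 differed by -3.32 ± 0.89 (SE), a geometric mean in T 9.97 times that in G, Saa2 by -3.16 ± 0.76 (8.91 times) and Lcn2 by -3.04 ± 1.00 (8.21 times). The other differences were -1.89 ± 0.57 for Orm3, -1.53 ± 0.53 for Orm2, -1.27 ± 0.61 for Saa3, -1.07 ± 0.43 for Orm1, -0.95 ± 0.26 for Hp, -0.70 ± 0.45 for Apcs and -0.70 ± 0.32 for Saa4.

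Again 0 of 10 were called by limma with Benjamini-Hochberg adjustment, where 0.127% of all genes were, with adjusted p from 0.125 (Saa2) to 0.607 (Apcs). At an unadjusted p under 0.05 there were 7 of 10, all lower in G, against 6.73% of all genes. Groups G and T did not overlap for 5 of 10, Saa1, Saa2, Orm1, Orm2 and Hp, against 2.03% of all genes with G below T, and for Hp the gap was under 0.01. The methods' t-test gave 6 of 10 at an unadjusted p under 0.05 with equal variances, against 10.5% of all genes, and 0 of 10 with unequal variances, against 9.92%. Without T2 the median over the 10 genes was -0.67 in place of -1.40, with Saa2 at -2.16 ± 0.49, Saa1 at -2.02 ± 0.40, Lcn2 at -1.64 ± 0.54 and Apcs at -0.03 ± 0.18. Without T1, Saa2 was called (-3.78, adjusted p = 0.047), and this was the only such call when 1 mouse was left out. All 10 genes were lower in G within slide 1 (median -2.44) and within slide 2 (median -0.66). Because T against C and G against T share the livers of group T, the opposite signs of these comparisons are not independent of each other.

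**Figure D3:**
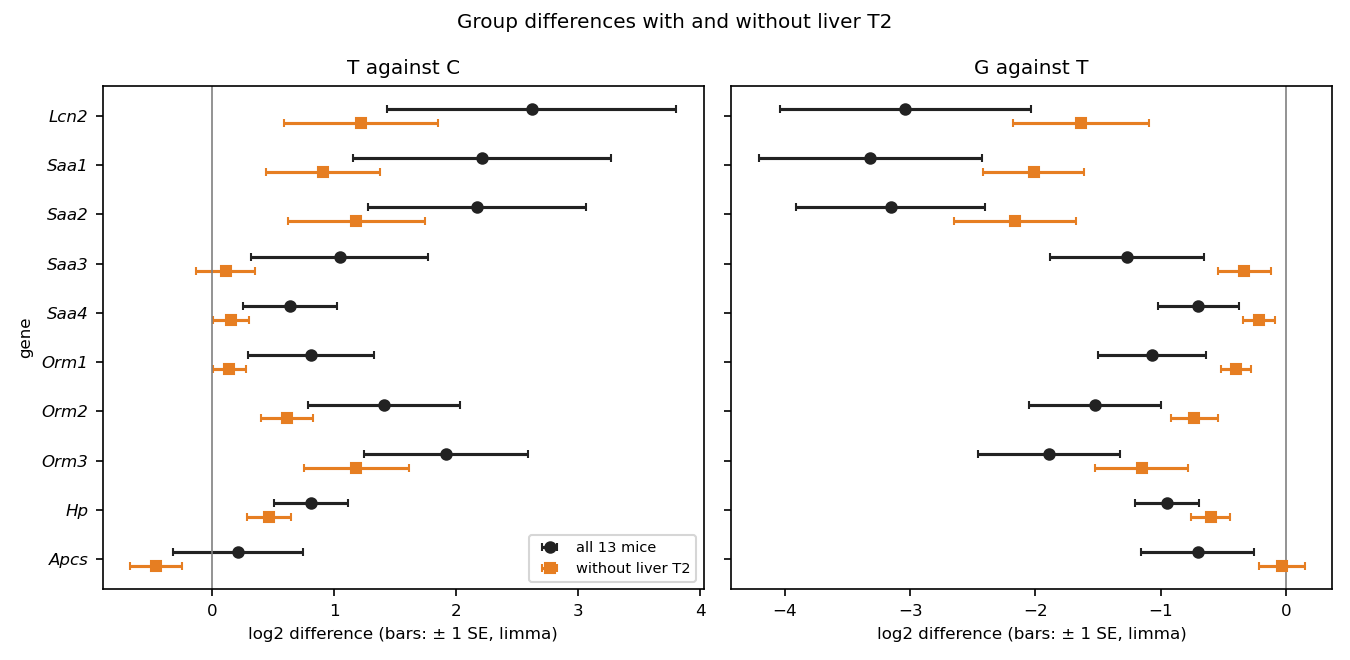
Log2 differences (x axis) of T against C (left) and G against T (right) for the 10 genes, with bars of ± 1 SE from limma. Black circles use all 13 mice and orange squares leave out liver T2, which brings the median of T against C from 1.23 to 0.54 and that of G against T from -1.40 to -0.67.

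The third comparison, G against C, sets the mice that received DEN and Gas1 beside the saline controls that received the empty plasmid. The differences ran from -1.10 ± 0.98 (Saa1) to 0.03 ± 0.62 (Orm3), with 9 of 10 below 0 in the main setting and a median of -0.24, but under median scaling 7 of these 9 turned positive. By limma 0 of 10 were called, where 0.427% of all genes were (adjusted p 0.666 to 0.990), and 0 of 10 had an unadjusted p under 0.05, where 13.2% of all genes did. The groups did not overlap for 3 of 10, Saa1, Saa2 and Apcs, all with G below C, against 5.86% of all genes in either direction. The gaps were small for Apcs (highest of G 10.64, lowest of C 10.66) and Saa2 (11.33 and 11.42). The error in limma is shared by the 3 groups and is widened by liver T2, which is in neither group. Without T2 the differences stayed the same with smaller errors, -1.10 ± 0.40 for Saa1 (limma, unadjusted p = 0.0184, adjusted p = 0.264) and -0.49 ± 0.18 for Apcs (unadjusted p = 0.0203, adjusted p = 0.275). So 2 of 10 had an unadjusted p under 0.05 in this fit. The share of all genes at that level was not computed for it, so nothing particular to these genes is read from that count. Called were 0 of 10, and 56 of all 22032 genes. The methods' t-test, which uses groups G and C alone, gave 3 of 10 at an unadjusted p under 0.05 with equal variances, where 10.1% of all genes were, and 1 of 10 with unequal variances, where 9.14% were. After adjustment it gave 0 of 10. A p above the threshold does not show that G and C were alike.

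The SD of these genes was wide in group T, where liver T2, measured by 1 array, was the highest for each of the 10. The median SD of the 10 genes was 1.65 in group T, against 0.30 in group C and 0.23 in group G. Over the 7926 genes that were detected on all arrays with a value in every mouse, the median SD was 0.13 in group T, 0.13 in group C and 0.16 in group G. An SD over 1 in group T was found for 8 of the 10 genes and for 34 of the 7926 (0.429%). Ranked by their SD in group T among these 7926, Lcn2 was at place 2, Saa1 at 4, Saa2 at 5, Saa3 at 6, Orm2 at 10, Apcs at 14, Orm1 at 15, Saa4 at 36 and Hp at 106. Orm3 was not ranked, since its probe was not well above background on every array. These SD values and ranks count T2 for every gene, and the SD without it was not computed. For Saa3, T1, T3 and T4 lay at 7.67, 8.12 and 8.23 and T2 at 11.74. For Hp they lay at 16.80, 17.02 and 16.95 and T2 at 18.32.

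The genes varied together between livers. Over the 13 mice, Lcn2 correlated with Saa1 at r = 0.97 (Pearson, two-sided permutation p = 4e-05, adjusted over 9 pairs 0.00015) and rho = 0.81 (Spearman, permutation p = 0.0012, adjusted 0.0051). Of the 9 pairs, r ran from 0.82 (Apcs, adjusted permutation p = 0.031) to 0.97, and rho from 0.30 (Apcs, adjusted permutation p = 0.32) to 0.85 (Hp, adjusted permutation p = 0.0032). Without T2 and T4, the 2 mice farthest from the median of Lcn2, r stayed at 0.82 for Hp, 0.77 for Saa1 and 0.76 for Saa2. It dropped to 0.55 for Orm2 and 0.46 for Orm3, and to 0.36 for Orm1, 0.28 for Apcs, 0.26 for Saa4 and 0.20 for Saa3. The rho without these livers was 0.77 for Hp, 0.69 for Saa1, 0.64 for Saa2, 0.63 for Orm2 and 0.63 for Orm3, but 0.32 for Orm1, 0.25 for Apcs, 0.14 for Saa3 and 0.14 for Saa4. The relation of the last 4 to Lcn2 was thus weak without those 2 livers, which did not carry it alike. Orm1, Apcs, Saa3 and Saa4 were 2.82, 2.22, 3.85 and 2.09 above the mean of C in T2. In T4 they were at 0.42, -0.51, 0.33 and 0.07 from it. The r without T2 alone was not computed for these pairs. Within slide 1 (7 arrays) r ran from 0.86 (Apcs) to 0.99 (Hp), and within slide 2 (8 arrays) from -0.03 (Apcs) to 0.95 (Saa1). The r over all mice includes the differences between group means, and within the 6 livers of group G alone r was 0.86 for Hp, 0.58 for Saa1 and -0.68 for Saa3.

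**Figure D4:**
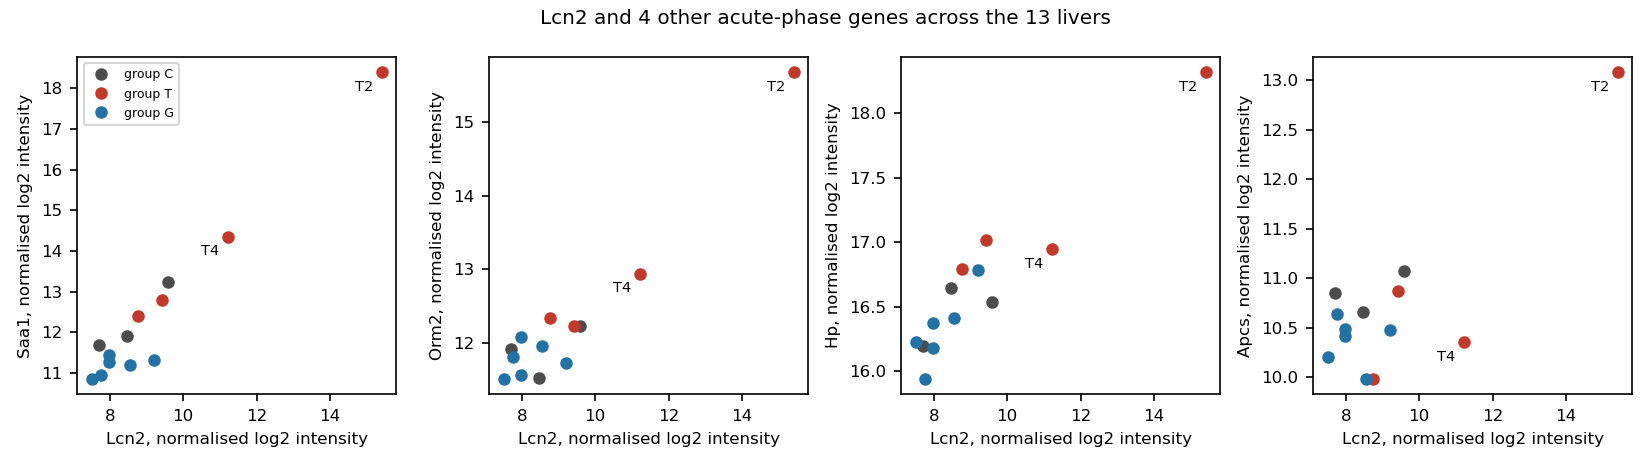
Normalised log2 intensity of Lcn2 (x axis) against that of Saa1, Orm2, Hp and Apcs (y axes) in the 13 livers, coloured by group. T2 lies alone at the upper right in each plot, T4 follows it for Saa1 and Orm2, and for Apcs T4 lies at 10.35, within the range of group G.

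The genes most like Lcn2 over the 13 mice, among 7917 other genes well above background on every array, were Lrg1 (r = 0.94), Prg4 (0.94), Isyna1 (0.93), Slc41a2 (0.93) and Tm4sf5 (0.92). Lrg1 encodes leucine-rich alpha-2-glycoprotein, a plasma protein of the acute phase, and Isyna1 the enzyme that makes inositol phosphate from glucose phosphate. The nearest to Orm3 were AI428936 (0.95), Cobl (0.91) and Isyna1 (0.91), and the nearest to Hp were Hpx (0.96), which encodes the heme carrier hemopexin, Prg4 (0.95) and Fgl1 (0.93). Without T2 these r were between 0.66 (Isyna1 with Lcn2) and 0.91 (Cobl with Orm3). Like the 10 genes, none of these 9 genes was called in T against C or G against T.

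A list of 30 other positive acute-phase proteins, of which 29 were measured, showed 0 called genes in any of the 3 comparisons. Its median log2 difference was 0.12 in T against C and -0.20 in G against T, much nearer to 0 than that of the 10 genes. The largest in T against C were the metallothioneins Mt2 (4.06 ± 1.13, adjusted p = 0.0727) and Mt1 (3.75 ± 1.09, adjusted p = 0.0851), which bind zinc and copper, and Fgl1 (2.27 ± 0.63, adjusted p = 0.0726), a fibrinogen-like protein secreted by hepatocytes. Mt2 was at 8.49, 8.04 and 8.17 in group C and at 9.18, 16.40, 11.94 and 11.66 in group T, so that T2 was again the highest liver, while T3 stood beside T4. Fgl1 was at 10.20, 10.62 and 10.69 in group C and at 11.85, 14.85, 11.89 and 12.50 in group T, with all 4 livers above group C.

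In liver T2, 9 of 28 genes of this list with a value were more than 2-fold above the mean of C, with a list median of 0.52. In T3 and T4 there were 3 of 29, and in T1 there was 1 of 29. Steap4 (1.82), Itih3 (1.67), Hpx (1.62), Itih4 (1.45), Serpina3n (1.37) and Crp (1.05) passed this distance in T2 alone, beside Mt2 (8.17), Mt1 (7.47) and Fgl1 (4.35). The fibrinogen chains Fga (0.47), Fgb (0.27) and Fgg (0.24), C3 (0.63) and Cp (0.59) lay within 2-fold of the mean of C in that liver, and Hamp, the iron hormone hepcidin, was at -0.66. The differences of T2 were thus uneven over the list, and these genes other than Mt1, Mt2 and Fgl1 are named for their values after these were seen.

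**Figure D5:**
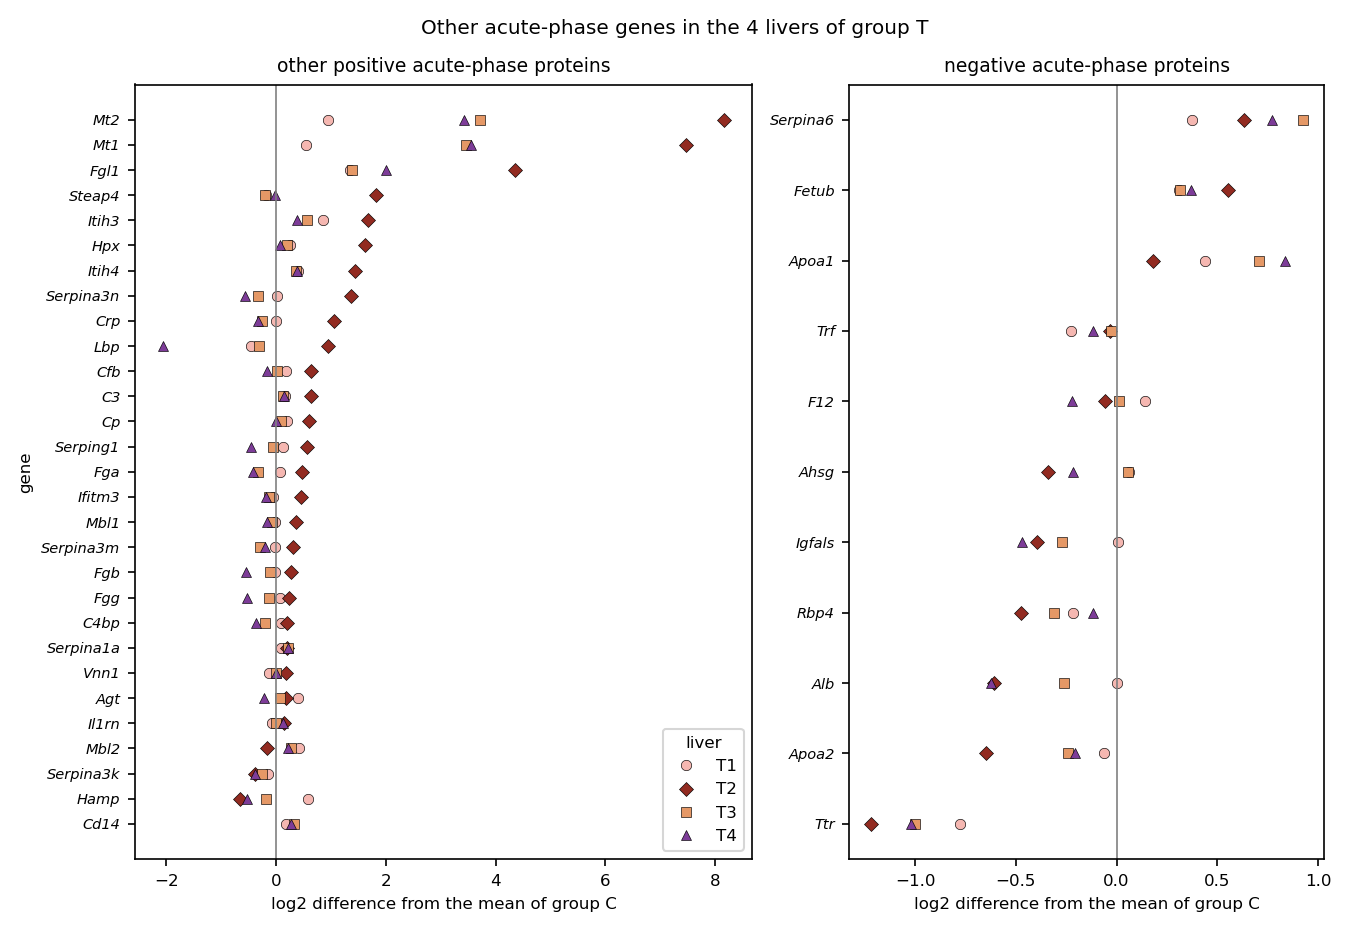
Log2 difference from the mean of group C (x axis) of each liver of group T for 29 other positive acute-phase proteins (left) and 11 negative acute-phase proteins (right), ordered by the value in T2. T2 is past 1, a 2-fold difference, for 9 genes of the left list, and Ttr is below 0 in all 4 livers. Cd14 has no value in T2.

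Of the 11 negative acute-phase proteins, whose blood level falls in the response, 1 was called in T against C, where 2.38% of all genes were. Ttr, which encodes the thyroid hormone carrier transthyretin, fell in T against C by 1.01 ± 0.13 on the log2 scale (limma, adjusted p = 0.0059). It was at 16.81, 17.07 and 16.57 in group C and at 16.04, 15.60, 15.82 and 15.80 in group T. All 4 livers of group T, T1 and T3 included, lay below group C. In group G it ran from 16.25 to 16.61, and G against T gave 0.62 ± 0.11 (adjusted p = 0.0576). The median of the list in T against C was -0.11, with 3 of the 11 higher in T.

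Of 19 cytokines and receptors of the response, 1 was called higher and 1 lower in T against C (2.38% of all genes in either direction) and 0 in the other comparisons. The median in T against C was 0.04. Il1r1, the signalling receptor of interleukin-1, rose by 0.99 ± 0.20 (adjusted p = 0.0266), from 6.53 to 7.03 over group C to 7.65, 8.28, 7.65 and 7.46 in T1 to T4, and was well above background on 14 of 15 arrays. Lif, an interleukin-6 family cytokine, fell by 0.34 ± 0.08 on the log2 scale (adjusted p = 0.0467), but its probe was well above background on only 6 of 15 arrays. The probes of Il6, Il1a, Tnf, Osm and Il22ra1 were not well above background on any array, nor was that of Socs1 in the next list.

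Of 20 transcription factors and feedback genes 0 were called in any comparison, and the median of T against C was 0.06. Nfkbia, the inhibitor of NF-kB, differed by 0.25 (adjusted p = 0.439) and Stat3 by 0.24 (adjusted p = 0.344). Stat3 was at 9.28 in T2, against 8.66 to 8.73 in the other livers of group T and 8.58 to 8.62 in group C. Socs3, the feedback inhibitor of interleukin-6 signalling, was 1.59 above the mean of C in T4 and 1.45 above it in T2, with 0.37 in T3 and 0.43 in T1, and was not called (0.96, adjusted p = 0.123). In group G Socs3 ran from 7.30 to 8.02 (mean 7.61, against 7.69 in group T), above the 6.30 to 7.25 of group C. Liver C1 was 0.51 above the mean of C. A raised Socs3 was thus not particular to T2 and T4. Socs3 is named for its known role, outside the naming rule.

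As Lcn2 is also a neutrophil product, the neutrophil list was read beside it. Of 12 markers 11 were measured, 3 were well above background on every array, and the defining genes Ltf and Retnlg on none. Their summed linear level was 3213 to 4258 in group C, 3428 to 6518 in group T and 2932 to 8331 in group G. Csf3r, the receptor of granulocyte colony-stimulating factor, alone made 58.9% to 88.0% of this sum over the 13 livers. Without it the sum of the other 10 was 855.7 to 1022 in group C and 810.6 to 1031 in group G, and in group T it was 1216 in T1, 1952 in T2, 1004 in T3 and 900.2 in T4, so that T2 was the highest of all 13 livers. In T2, 2 of the 11 markers were more than 2-fold above the mean of C, S100a9 and S100a8. The median of the 11 there was 0.12 on the log2 scale, so this sum does not stand for the list as a whole. S100a9, a calprotectin subunit, was at 8.84, 10.03, 8.24 and 7.55 in T1 to T4 and at 6.60 to 7.86 in group C (1.36 ± 0.47, adjusted p = 0.13). Csf3r (0.15, adjusted p = 0.875), Elane (-0.02, adjusted p = 0.962) and S100a8 (0.58, adjusted p = 0.187) were not called in T against C, and S100a8 was 1.29 above the mean of C in T2. The part of neutrophils in the reading of Lcn2 in T2 was not tested.

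Among 9 macrophage and Kupffer cell markers, Emr1 (F4/80) rose in T against C by 0.31 ± 0.06 (limma, adjusted p = 0.0262), with 8 of the 9 not called, where 2.38% of all genes were called. Its probe was well above background on 13 of 15 arrays. The summed level of the list was 1820 to 2511 in group C, 2156 to 2837 in group T and 2144 to 3175 in group G, at 2782 in T2 and 2156 in T4. Of 5 adipocyte markers none was well above background on every array, Lep on none, and 0 were called. Of 6 cholangiocyte markers 0 were called, with Spp1 at 0.16 and Cldn7 at -0.23 in T against C. The summed level of 8 hepatocyte markers with a value in every mouse was 599900 to 650800 in group C, 396800 to 574500 in group T and 474200 to 594700 in group G, with all 4 livers of T below all 3 of C. This linear sum gives most weight to the brightest genes, such as Alb (mean 18.20 in group C). Alb and Ttr are also in the list of negative acute-phase proteins. Of the 9 hepatocyte markers measured, 2 were higher in T against C, Hnf4a (0.38) and Tat (0.24). The sum thus does not stand for the number of hepatocytes. Whether any of these lists had a part in the differences of the 10 genes was not tested.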

How the data were processed

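Liver RNA (100 ng labelled) of 13 mice was hybridised to 15 single-colour Agilent arrays. The authors deposited the scanner output of Feature Extraction, with the intensity of each spot and of its background and 0 or 1 flags, and a table of log2 values after normexp and quantile normalization. No column of that table was left unmapped. Array signals have no read depth, so the number of arrays limits the precision.

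From the deposited intensity, normexp (offset 50), log2 and quantile normalization over 59305 spots that are not controls followed the paper's methods, with 218 to 3692 outlier-flagged spots per array left out. The gene values lay within 0.05 of the authors' log2 table for 99.2% of values. Probes of 1 gene symbol (29522 probes, 22032 symbols) were centred and averaged, and arrays of 1 RNA code were averaged. The test of each comparison was that of limma 3.58.1 under R 4.3.3 (lmFit, eBayes, Benjamini-Hochberg over all genes, threshold 0.05), and the code was tested on simulated data. The labels do not say whether mice shared a cage or litter. Correlations used 100000 permutations (scipy 1.17.1). Promoters are those of RefSeq (biopython 1.88 for alignment).

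The 10 genes and all lists were chosen with earlier results of these data known. Named genes are the 10, the called genes of each list (at most 8) or else the 3 with the largest T against C difference among genes well above background on every array, and the genes nearest by r to Lcn2 (5), Orm3 (3) and Hp (3). A gene that this rule names among the transcription factors is not reported here. Alternatives covered scaling, dim probes, flagged spots, probe choice, array pairing, slides, replicate number, t-tests and single mice.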

Additional observations from a re-analysis of the deposited data

Results flagged for a closer look

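Among the 20 sets formed by the 10 genes in groups T and G, 4 held a liver whose gap to its nearest neighbour, as a share of the group's whole range, passed Dixon's 95% critical value for a group of that size. For independent sets about 1 in 20 would pass. These sets share livers and their genes vary together, so the count of 4 cannot be weighed against that share. Liver T2 was apart in group T for Saa3 (0.863), Hp (0.852) and Orm1 (0.84). For Lcn2, Saa1 and Saa2 the same liver was also the highest, but T4 lay between it and the others, with shares of 0.631, 0.674 and 0.509. In group G liver G5 was apart for Orm3 (0.679), at 7.77 where the other 5 lay at or below 6.90. Group C, with 3 livers, was not read in this way.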

How the results depend on the processing

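The count of the 10 genes called was 0 under 24 of the 27 alternatives in T against C, 25 of 27 in G against T and 27 of 27 in G against C. In T against C it was 5 with median scaling, 1 (Hp) with the authors' table and 1 (Orm3) with the 15 arrays taken as separate mice. In G against T it was 1 (Saa2) with separate arrays. When single mice were left out it was 0 to 0 in T against C, 0 to 1 in G against T (Saa2 without T replicate 1) and 0 to 0 in G against C.

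The signs of G against T held throughout. In T against C those of Saa3 (-0.16), Orm1 (-0.0078) and Apcs (-0.56) turned within slide 2, and with single mice left out Apcs ran from -0.46 (without T2) to 0.57. In G against C, median scaling gave 0.31 for Lcn2, 0.34 for Saa3, 0.78 for Saa4, 0.58 for Orm1, 0.70 for Orm2, 0.71 for Hp and 0.36 for Apcs. That scaling moved the median of all genes from 0.01 to 0.12 in T against C, where the median of the 10 genes was 2.16. Scaling the processed signal on its 75th percentile moved it to -0.40 and turned Orm3 in G against C (-0.026). The authors' table turned Hp (0.24). Within slide 1, Lcn2 (0.17), Saa3 (0.067), Orm3 (-0.21) and Hp (0.029) turned, and within slide 2 Saa4 (0.0065). With single mice left out, G against C ran from -0.86 to 0.083 for Lcn2, -0.52 to 0.0053 for Saa3 and -0.31 to 0.051 for Orm2 (each highest without C1), from -0.16 to 0.0097 for Saa4 (highest without C2) and from -0.16 to 0.10 for Orm3 (lowest without G5). The causes were not tested.

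Over all genes, the count called in T against C was 525 and ran from 0 (ordinary t-test) to 2832 (median scaling, 99.5% higher in place of 51.0%). It was 28 in G against T, from 1 (t-test with unequal variances) to 263 (separate arrays), and 94 in G against C, from 0 (median scaling, and without G3) to 342 (separate arrays). Replicate numbers did not pair the mice, with correlations of -0.31 to 0.26. With the replicate number as a block 0 of the 10 were called in each comparison, 1581, 170 and 326 genes were called in all, and Orm3 in G against C was at -0.11. Of the 10, Orm3 alone was not well above background on every array, missing this level in liver C2. The raw signal of Saa3 in that liver was also low (67.7, where the spots of the 10 genes had backgrounds of 24 to 31).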
